A study of Mus musculus with 4 samples.

Results

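The 39 protein-coding Hox genes of the mouse were followed in fibroblasts that were being reprogrammed to induced hepatocytes, after treatment with Cre recombinase or with a non-functional Cre. They were chosen by name, as every gene whose symbol is Hox, a cluster letter from a to d and a paralogue number, and they make up 39 of the 55397 genes listed. The cells were primary mouse embryonic fibroblasts (MEFs) from C57BL/6J embryos of embryonic day E13.5, homozygous for a conditional Prox1 allele (Prox1 fl/fl), which the control cells carried too. Cre deletes this allele, and PROX1 is a homeodomain transcription factor of the liver. According to the methods, the cells came from the distal parts of all limbs, forelimbs and hindlimbs together, and several embryos were pooled for one line. All cultures received the 4in1 lentivirus (LV.4TF), which encodes the hepatocyte reprogramming factors. The libraries labelled Prox1 KO (KO-labelled libraries) received Cre recombinase with GFP as well, and the controls received the non-functional delta Cre with GFP. RNA was taken at day 14, with 2 libraries in each group, numbered replicate 1 and replicate 2.

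Hox genes encode homeodomain transcription factors that give cells their position along the body axis and along the limb. They lie in clusters in which the order of the genes on the chromosome follows the order in which they are used, with low paralogue numbers acting anteriorly or proximally and high numbers posteriorly or distally. In the limb, the Hoxa and Hoxd clusters act in both forelimb and hindlimb, whereas posterior Hoxc genes are known for their use in the hindlimb, and cultured fibroblasts keep much of the Hox pattern of their site of origin. The comparison asked whether this pattern differed between cells labelled Prox1 KO and control cells of the same replicate number.

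The libraries held 42469031 to 48524008 reads on genes. Prox1, the targeted gene, had normalized counts (reads divided by the size factor of the library) of 72.7 and 61.6 in KO-labelled replicates 1 and 2 and 60.6 and 25.5 in the controls. The gene was thus not lower under the KO label, and both KO-labelled libraries lay above both controls. The log2 difference was 0.75 (SE 0.27, adjusted p = 0.0936 from limma) and was not called. The pair of replicate 1 gave 0.26 and that of replicate 2 gave 1.24. The directions below therefore rest on the labels. A count over the whole gene does not separate reads of deleted exons from reads of the others. All 9 fibroblast markers were present, with Col1a1 at 251989.6 to 300038 normalized counts, as was Prrx1, a transcription factor of limb mesenchyme, at 15326 to 15916.

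Of the 39 Hox genes, 34 averaged 10 or more normalized counts and entered the test. Of the other 5, Hoxb1 and Hoxd1 had no reads. Hoxa2 had 1.04 to 7.34 normalized counts, Hoxd3 had 0.918 to 5.32, and Hoxb13 had at most 1.06. Levels of different genes were compared as RPKM, that is, reads scaled by the exon length of the gene and by the reads on genes of the library. Cell number and RNA per cell cannot be told apart in bulk RNA, so a lower level may stand for fewer cells that use the gene or for less RNA in each of them.

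Posterior paralogues dominated in all 4 libraries. Paralogues 9 to 13 held 75.6% to 79.6% of the summed Hox level, paralogues 5 to 8 held 16.8% to 20.7%, and paralogues 1 to 4 held 3.33% to 3.67%. Hoxd13, which acts in the digits and wrist, was the highest of the 39 at 24.6 and 20.03 RPKM in the KO-labelled libraries and 26.1 and 19.9 RPKM in the controls. Hoxa11 (11.6 to 13.6 RPKM), Hoxa10 (9.68 to 10.97) and Hoxa13 (6.17 to 7.89), which pattern the middle and distal limb, followed. Over the 4 libraries, the ranges of these genes did not overlap. Hoxd10, next in the order at 4.13 to 5.74 RPKM, lay below Hoxa13 in every library.

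In the Hoxa cluster (chromosome 6, 52155590 to 52260880, GRCm38), Hoxa10, Hoxa11 and Hoxa13 were above the rest. The anterior members Hoxa3 (0.195 to 0.246 RPKM) and Hoxa4 (0.177 to 0.336) lay below 1 RPKM in every library. Hoxa5 (0.991 to 1.39), Hoxa6 (1.04 to 1.56), Hoxa7 (3.55 to 4.12) and Hoxa9 (1.87 to 2.05) lay between these and Hoxa13, with Hoxa7 above Hoxa9 in every library. In the Hoxb cluster (chromosome 11, 96194316 to 96368256), which acts mainly in the trunk and hindbrain, Hoxb9 had the highest mean (1.34 to 2.57 RPKM), with a range that overlapped that of Hoxb7. The other tested members were Hoxb2 (0.272 to 0.311), Hoxb3 (0.329 to 0.4397), Hoxb4 (0.468 to 0.663), Hoxb5 (0.203 to 0.265), Hoxb6 (0.866 to 1.03), Hoxb7 (0.92 to 1.39) and Hoxb8 (0.206 to 0.2503).

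In the Hoxd cluster (chromosome 2, 74668310 to 74765142), the anterior member Hoxd4 lay at 0.0811 to 0.128 RPKM, and from Hoxd8 (2.099 to 2.52) onwards every member lay above 1 RPKM in every library. Hoxd9 (1.496 to 2.06), Hoxd10 (4.13 to 5.74), Hoxd11 (1.496 to 2.095) and Hoxd12 (2.05 to 2.91) all lay below Hoxd13. In the Hoxc cluster (chromosome 15, 102921103 to 103036852), Hoxc6 had 2.72 to 4.97 RPKM and Hoxc8 1.14 to 2.49, with Hoxc4 (0.4897 to 0.908) and Hoxc5 (0.354 to 0.654) lower. The posterior members Hoxc9 (0.254 to 2.03), Hoxc10 (0.313 to 6.599) and Hoxc11 (0.05099 to 0.548) spread widely between libraries. Hoxc12 lay at 0.05997 to 0.464 and Hoxc13 at 1.08 to 1.81 RPKM. Hoxd3 and Hoxd4 share exons. Hoxb3 and Hoxa11 overlap genes on the other strand over 52.9% and 35% of their exonic length. Whether reads were counted by strand is not given in the sources used here, so that these levels are uncertain.

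**Figure D1:**
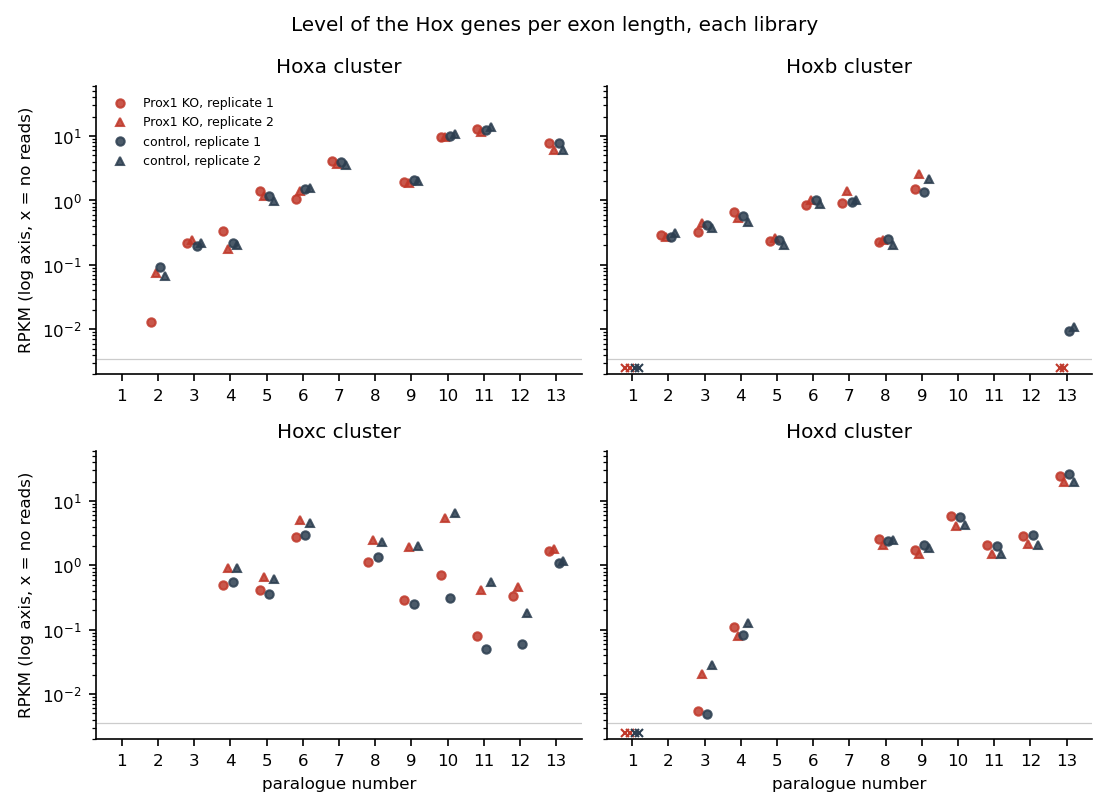
Level of the Hox genes in RPKM (log axis) against its paralogue number, with 1 panel for each cluster and 1 point for each library (red, Prox1 KO; dark blue, control; circles, replicate 1; triangles, replicate 2; crosses, no reads). Levels rise towards the posterior paralogues in the Hoxa and Hoxd panels, up to 26.1 RPKM for Hoxd13, and circles and triangles part at Hoxc9, Hoxc10 and Hoxc11.

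Of the 34 tested Hox genes, 2 were called between the KO-labelled libraries and the controls, Hoxc12 and Hoxc13, and both were higher in the KO-labelled libraries. The test was limma on log2(normalized counts + 1) with the replicate number as a block, with p-values adjusted over all 15809 genes tested and called under 0.05. These were 5.88% of the Hox genes tested, where 11.4% of all genes tested were called (5.09% higher, 6.29% lower). No Hox gene was called lower, and none of the other 32 had an unadjusted p under 0.05. Labels do not say whether the 2 libraries of a group came from separate cultures or embryos, and p-values measure the spread between these libraries only. Sex-linked genes, given below, differed between the replicate numbers, so the 2 libraries of a group did not hold the same mix of embryos.

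Hoxc13, a gene known for its role in hair and nails, lies at chr15:102921103-102928814 (GRCm38, plus strand), at the posterior end of its cluster. Its normalized counts were 184 and 200.4 in KO-labelled replicates 1 and 2 and 118 and 128 in the controls, so that both KO-labelled libraries lay above both controls. The means were 192 ± 11.6 (SD, n = 2) and 123 ± 6.59 (SD, n = 2), a 1.56-fold difference on the log2(normalized counts + 1) scale. The log2 difference was 0.64 (SE 0.15, adjusted p = 0.0106 from limma). The pair of replicate 1 gave 0.63 and that of replicate 2 gave 0.65. Counting error alone gave 95% Poisson intervals of 158 to 213 and 174 to 229.8 in the KO-labelled libraries, and of 98.9 to 141 and 106 to 153 in the controls.

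Hoxc12, its neighbour at chr15:102936757-102938609, rested on few reads. It had 15 and 22 reads in KO-labelled replicates 1 and 2 and 3 and 8 in the controls, or 15.6, 21.5, 2.75 and 8.52 normalized counts. Both KO-labelled libraries lay above both controls, but the gene reached the mean of 10 only through the libraries in which it was high (overall mean 12.1). The log2 difference was 1.69 (SE 0.49, adjusted p = 0.03605 from limma). The pair of replicate 1 gave 2.14 and that of replicate 2 gave 1.24. Its 95% Poisson interval was 0.568 to 8.05 normalized counts in control replicate 1 and 8.72 to 25.7 in its KO-labelled partner, which did not overlap. In pair 2 the intervals of 3.68 to 16.8 and 13.48 to 32.6 did overlap.

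Both calls depended on the model. edgeR on the recovered reads, with the block, also called both genes, whereas DESeq2 with the block called neither, with an adjusted p of 0.356 for Hoxc13 and none given for Hoxc12, and limma without the block called neither (adjusted p = 0.318 for Hoxc13 and 0.392 for Hoxc12).

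The homeoboxes of Hoxc12 and Hoxc13, which encode the DNA-binding homeodomain, are shown with those of their Hoxd paralogues, because close paralogues could share reads. Capitals mark the bases that differ from the paralogue. The sequences run 5′ to 3′ on the plus strand of GRCm38, were read from GENCODE vM21 transcripts, and each lies in exon 2 of its gene. The pair Hoxc13 and Hoxd13 was chosen after its values were seen.

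Hoxc12 (chr15:102938308-102938487): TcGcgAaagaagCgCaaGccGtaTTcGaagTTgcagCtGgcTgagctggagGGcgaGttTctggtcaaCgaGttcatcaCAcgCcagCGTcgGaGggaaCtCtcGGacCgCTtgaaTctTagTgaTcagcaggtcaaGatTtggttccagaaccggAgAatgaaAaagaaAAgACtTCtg
Hoxd12 (chr2:74675843-74676022): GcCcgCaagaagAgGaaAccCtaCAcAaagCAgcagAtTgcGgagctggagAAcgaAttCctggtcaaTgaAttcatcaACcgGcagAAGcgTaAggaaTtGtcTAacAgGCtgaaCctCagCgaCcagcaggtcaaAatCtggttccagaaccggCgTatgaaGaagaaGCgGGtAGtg
Hoxc13 (chr15:102927210-102927389): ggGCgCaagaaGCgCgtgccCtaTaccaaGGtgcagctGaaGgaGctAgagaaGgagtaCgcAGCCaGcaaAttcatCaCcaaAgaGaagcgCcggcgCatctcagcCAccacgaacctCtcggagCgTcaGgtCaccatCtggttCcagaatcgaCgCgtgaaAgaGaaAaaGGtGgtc
Hoxd13 (chr2:74669930-74670109): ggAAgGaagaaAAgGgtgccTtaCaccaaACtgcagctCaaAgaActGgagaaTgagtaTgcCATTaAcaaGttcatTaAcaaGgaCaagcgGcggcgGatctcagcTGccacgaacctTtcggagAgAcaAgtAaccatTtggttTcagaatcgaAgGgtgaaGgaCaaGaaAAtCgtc

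The homeoboxes of Hoxc12 and Hoxd12 shared 129 of 180 bases (71.7%) and those of Hoxc13 and Hoxd13 135 of 180 (75%). In the encoded homeodomains, 49 and 51 of 60 residues were the same. Of the 100-base windows of the longest Hoxc12, Hoxc13, Hoxd12 and Hoxd13 transcripts, none occurred in a transcript of another gene. Neither Hoxd paralogue was called between the groups. Hoxd12 had a log2 difference of 0.01 (95% interval -0.24 to 0.25) and Hoxd13 of -0.04 (-0.15 to 0.06).

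The posterior genes that carried most of the Hox signal were not called, and their differences had narrow intervals. For Hoxd13 the normalized counts were 2723 and 2237 in KO-labelled replicates 1 and 2 and 2889 and 2232 in the controls, and the groups overlapped. For Hoxa10 they were 1421 and 1423 in KO-labelled replicates 1 and 2 and 1451 and 1621 in the controls, with both controls above both KO-labelled libraries, at a log2 difference of -0.11 (95% interval -0.24 to 0.02). For Hoxa11 the difference was -0.10 (-0.25 to 0.05), for Hoxa13 -0.02 (-0.17 to 0.13), for Hoxd10 -0.02 (-0.23 to 0.18) and for Hoxd11 0.02 (-0.21 to 0.24). The intervals were wider for genes with few reads, such as Hoxd4 (-1.06 to 0.82) and Hoxa4 (-0.67 to 1.04), where a difference of the size seen for Hoxc13 was not detectable at this depth.

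By cluster, limma called 0 of 10 Hoxa, 0 of 8 Hoxb, 2 of 9 Hoxc and 0 of 7 Hoxd genes. In the Hoxa, Hoxb and Hoxd clusters, none had an unadjusted p under 0.05, and edgeR and DESeq2 called none either. By paralogue number, limma called 0 of 8 genes of paralogues 1 to 4, 0 of 11 of paralogues 5 to 8 and 2 of 15 of paralogues 9 to 13. The median log2 difference of the 34 was 0.01, and that of all genes tested was -0.00. The median size of the difference was 0.10 for both. The groups did not overlap for 8 of the 34 Hox genes (23.5%), against 44.4% of all genes tested. Apart from the called genes these included Hoxa5, Hoxa6, Hoxa9, Hoxa10 and Hoxd9. The uncalled genes ranged from -0.34 (Hoxa6) to 0.26 (Hoxa5) in the Hoxa cluster and from -0.05 (Hoxb3) to 0.21 (Hoxb9) in the Hoxb cluster. They ranged from -0.10 (Hoxc4) to 0.42 (Hoxc10) in the Hoxc cluster and from -0.27 (Hoxd9) to 0.02 (Hoxd11) in the Hoxd cluster.

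Within pairs, 15 of the 34 Hox genes (44.1%) had differences of the same sign in both, called or not, against 65.8% of all genes tested. In the Hoxa cluster 8 of 10 did so, against 2 of 8 in the Hoxb, 4 of 9 in the Hoxc and 1 of 7 in the Hoxd cluster. Hoxa5 was among the genes with like values, 0.26 and 0.26, though its adjusted p was 0.428 from limma. Hoxd9 had -0.24 and -0.30, and Hoxb9 0.18 and 0.24. Hoxc10 went opposite ways, with 1.12 in pair 1 and -0.28 in pair 2. Hoxc11 (0.57 and -0.38) and Hoxd4 (0.37 and -0.62) also pointed opposite ways.

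**Figure D2:**
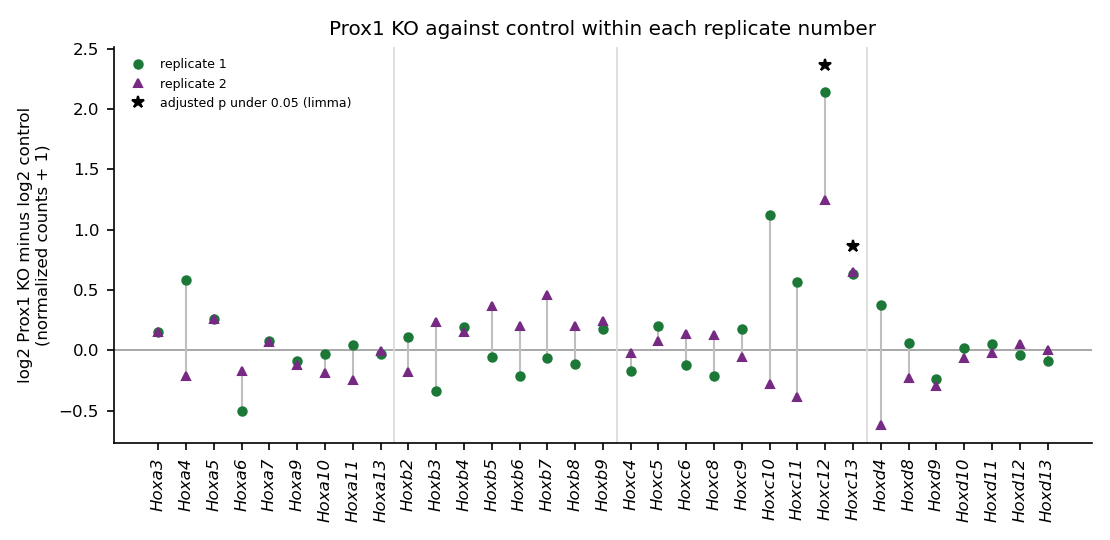
Difference on the log2(normalized counts + 1) scale between the KO-labelled library and the control of the same replicate number, for tested Hox genes in the order of cluster and paralogue number (green circles, replicate 1; purple triangles, replicate 2; stars, adjusted p under 0.05 from limma). Hoxc12 and Hoxc13 lie above 0 in both pairs, and the symbols of Hoxc10 lie at 1.12 and -0.28.

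More Hox genes were called between the replicate numbers than between the groups. In the same limma model, 13 of the 34 (38.2%) were called between replicate 2 and replicate 1, where 7.88% of all genes tested were called (4.39% higher and 3.49% lower in replicate 2). Labels do not say whether the 2 libraries of a replicate number came from 1 culture. The p-values and SDs between the replicate numbers thus measure the spread between these libraries only, and not that between cultures or embryos. Of these, 8 were higher in replicate 2 (Hoxb9, Hoxc4, Hoxc5, Hoxc6, Hoxc8, Hoxc9, Hoxc10 and Hoxc11) and 5 were lower (Hoxa13, Hoxd10, Hoxd11, Hoxd12 and Hoxd13). The median size of the replicate difference was 0.28 for the Hox genes and 0.09 for all genes tested on the log2 scale. The replicate numbers did not overlap for 18 of the 34 Hox genes (52.9%), against 36.4% of all genes tested.

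In the Hoxc cluster, 7 of 9 genes were called higher in replicate 2, and the uncalled Hoxc12 and Hoxc13 also had differences above 0. Hoxc10, a gene of hindlimb and posterior trunk, had normalized counts of 59.2 and 26.6 in replicate 1 and 468 and 569.5 in replicate 2 (the KO-labelled library before the control in each). Both libraries of replicate 2 thus lay above both of replicate 1, with means of 519 ± 71.6 and 42.9 ± 23.1 (SD, n = 2 each). The log2 difference was 3.66 (SE 0.24, adjusted p = 6.38e-08 from limma), or 12.7-fold. Replicate 2 lay above replicate 1 by 2.96 among the KO-labelled libraries and by 4.37 among the controls.

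Its neighbours Hoxc9 and Hoxc11, which act in the posterior trunk and the hindlimb, were also higher in replicate 2. Hoxc9 had normalized counts of 31.2 and 27.5 in replicate 1 and 214 and 222 in replicate 2, a 7.23-fold difference (log2 2.85, SE 0.20, adjusted p = 1.49e-07 from limma). Hoxc11 had 7.27 and 4.59 in replicate 1 and 38.1 and 50.03 in replicate 2, a 6.57-fold difference (log2 2.72, SE 0.40, adjusted p = 0.000417 from limma). Neither gene showed any overlap between the replicate numbers, but Hoxc11 reached the mean of 10 only through replicate 2. Hoxc10 and Hoxc5 have in common 8.7% of the exonic length of Hoxc10.

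Towards the anterior end of the cluster the differences were smaller and alike. Hoxc8 had normalized counts of 144 and 168 in replicate 1 and 318 and 291 in replicate 2, a log2 difference of 0.96 (SE 0.13). Hoxc6 had 292 and 319 in replicate 1 and 539 and 489.7 in replicate 2, a difference of 0.75 (SE 0.10). Hoxc4 and Hoxc5 differed by 0.80 (SE 0.20) and 0.75 (SE 0.21). Towards the posterior end the calls stopped between Hoxc11 and Hoxc12. Hoxc12 differed by 0.89 (SE 0.49, adjusted p = 0.342 from limma) and Hoxc13 by 0.12 (SE 0.15, adjusted p = 0.7398 from limma). The genes of the cluster that were called between the groups were thus not those called between the replicate numbers. The replicate difference of Hoxc12 was nonetheless larger than those of the called Hoxc4, Hoxc5 and Hoxc6, with a wider SE, on few reads.

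As a share of the summed Hox level per length, the Hoxc cluster held 8.45% and 7.45% in replicate 1 and 20.3% and 19.4% in replicate 2 (KO-labelled library before control). The Hoxd cluster held 42.8% and 44.2% in replicate 1 and 33.4% and 33.3% in replicate 2. In both clusters the replicate numbers lay further apart than the groups of 1 number. The Hoxa cluster stayed between 39.1% and 43.3% and the Hoxb cluster between 5.43% and 7.15% in all 4 libraries. These are shares of 1 sum, so a rise of one cluster lowers the others.

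**Figure D3:**
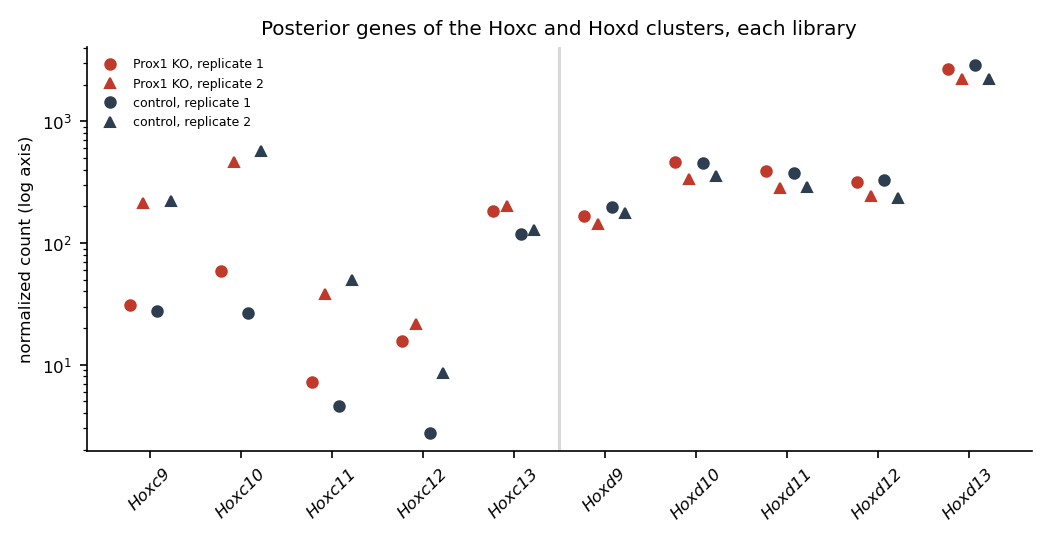
Normalized counts (log axis) of the posterior Hoxc and Hoxd genes in each library (red, Prox1 KO; dark blue, control; circles, replicate 1; triangles, replicate 2). For Hoxc9 to Hoxc11 the triangles lie above the circles, for Hoxd10 to Hoxd13 below them, and for Hoxc12 and Hoxc13 both red points lie above both dark blue points.

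The posterior Hoxd genes and Hoxa13 went the other way, with smaller differences. Hoxd13 had normalized counts of 2723 and 2889 in replicate 1 and 2237 and 2232 in replicate 2, and the libraries of replicate 2 lay below those of replicate 1 (log2 -0.33, SE 0.05, adjusted p = 0.000442 from limma). Hoxd12 had 320.1 and 329 in replicate 1 and 243 and 235 in replicate 2 (log2 -0.44, SE 0.11), Hoxd11 differed by -0.44 (SE 0.10) and Hoxd10 by -0.42 (SE 0.10). Hoxa13, the Hoxa gene that acts with Hoxd13 in the digits, had 852 and 868 in replicate 1 and 686 and 689.8 in replicate 2 (log2 -0.32, SE 0.07, adjusted p = 0.01002 from limma). Hoxd9 (-0.18), Hoxd8 (-0.11) and Hoxd4 (0.09) were not called.

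In the Hoxb cluster, Hoxb9 was called, with normalized counts of 174 and 153 in replicate 1 and 297 and 251 in replicate 2 (log2 0.74, SE 0.13, adjusted p = 0.001496 from limma). The other 7 tested Hoxb genes had log2 differences from -0.30 (Hoxb4) to 0.34 (Hoxb7), and none was called. In the Hoxa cluster the 9 uncalled genes ranged from -0.46 (Hoxa4) to 0.26 (Hoxa6). DESeq2 called 6 of the 34 between the replicate numbers, Hoxc6, Hoxc8, Hoxc9, Hoxc10, Hoxc11 and Hoxd13, and edgeR called 13.

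Read across the clusters, genes of 1 paralogue number did not move as a unit between the replicate numbers. For paralogue 10 the log2 differences were 0.08 (Hoxa10), 3.66 (Hoxc10) and -0.42 (Hoxd10). For paralogue 9 they were -0.02 (Hoxa9), 0.74 (Hoxb9), 2.85 (Hoxc9) and -0.18 (Hoxd9). For paralogue 11 they were 0.01 (Hoxa11), 2.72 (Hoxc11) and -0.44 (Hoxd11). In paralogue 13, Hoxa13 and Hoxd13 were lower in replicate 2 and Hoxc13 was not called.

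**Figure D4:**
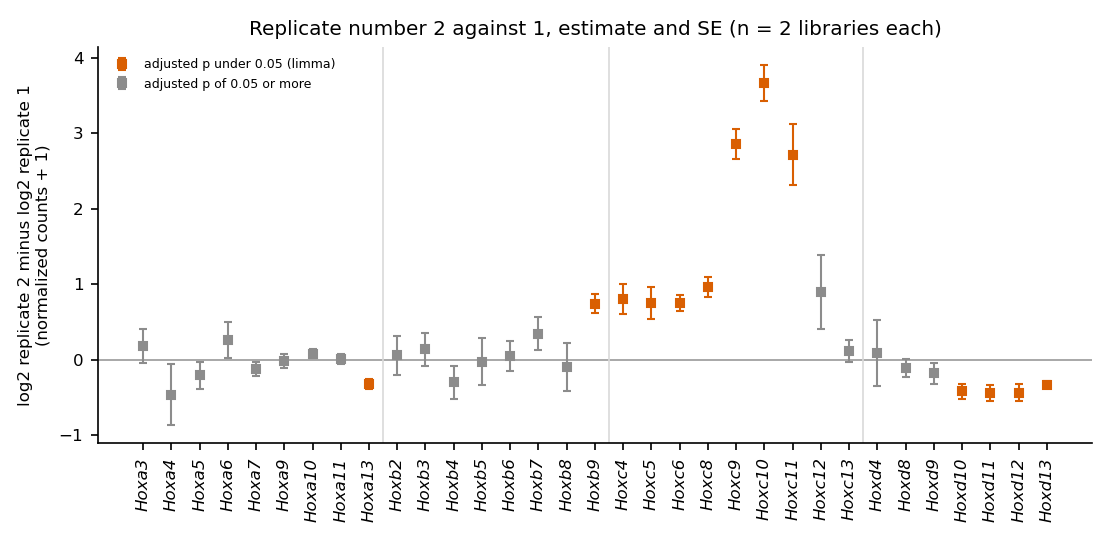
Difference between replicate 2 and replicate 1 on the log2(normalized counts + 1) scale, with its SE from limma (n = 2 libraries of each number), for tested Hox genes in the order of cluster and paralogue number. Orange squares mark the 13 genes with an adjusted p under 0.05 and grey squares the others. Hoxc9, Hoxc10 and Hoxc11 stand between 2.72 and 3.66, and Hoxd10 to Hoxd13 lie between -0.44 and -0.33.

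Promoters are shown for 4 of the 5 genes that were lower in replicate 2, since these moved together. Neither of the 2 RefSeq entries of the other gene, Hoxd11, held the CCAAT box letters marked here. Apart from Hoxd12, they were chosen after their values were seen. Each is the 250 bases before the RefSeq start (GRCm38.p6, 5′ to 3′ on the strand of the gene), with the CCAAT box letters of either strand, CCAAT or ATTGG, in capitals.

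Hoxa13 (chr6:52260881-52261130, minus strand): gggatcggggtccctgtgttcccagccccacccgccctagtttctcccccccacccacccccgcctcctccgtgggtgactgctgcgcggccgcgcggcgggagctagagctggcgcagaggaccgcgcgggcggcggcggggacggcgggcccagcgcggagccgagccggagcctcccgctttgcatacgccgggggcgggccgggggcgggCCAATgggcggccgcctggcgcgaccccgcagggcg
Hoxd10 (chr2:74691641-74691890, plus strand): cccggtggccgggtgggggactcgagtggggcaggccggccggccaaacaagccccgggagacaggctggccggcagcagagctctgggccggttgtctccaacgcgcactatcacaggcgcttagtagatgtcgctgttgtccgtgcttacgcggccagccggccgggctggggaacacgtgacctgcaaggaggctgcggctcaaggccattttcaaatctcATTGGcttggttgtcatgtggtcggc
Hoxd12 (chr2:74674763-74675012, plus strand): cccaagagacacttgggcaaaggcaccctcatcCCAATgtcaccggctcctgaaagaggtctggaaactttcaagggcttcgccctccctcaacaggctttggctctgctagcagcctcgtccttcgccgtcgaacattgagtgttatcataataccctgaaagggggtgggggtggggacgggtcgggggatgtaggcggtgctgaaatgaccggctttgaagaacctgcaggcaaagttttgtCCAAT
Hoxd13 (chr2:74667975-74668224, plus strand): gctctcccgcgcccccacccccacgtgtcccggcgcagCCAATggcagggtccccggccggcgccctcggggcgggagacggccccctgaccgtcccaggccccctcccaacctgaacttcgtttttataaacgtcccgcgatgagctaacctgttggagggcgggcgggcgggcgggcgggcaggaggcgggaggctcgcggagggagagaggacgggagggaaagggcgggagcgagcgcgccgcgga

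RefSeq promoter entries were at hand for 22 of the 39 Hox genes (24 entries). CCAAT or ATTGG stood in 14 of the 24 (58.3%), against 33.8% of 32851 promoters of the same length. The letters TGATNNAT, bound by PBX and HOX proteins together, stood in 16.7% of the Hox promoters against 7.7% of all, TGACAG, bound by MEIS proteins, in 8.3% against 15.9%, and TTTATNG, bound by posterior HOX proteins, in 8.3% against 9.8%, each on both strands. The median number of CpG was 12.5 in the Hox promoters and 6 in all promoters. These are descriptions of letters and not binding sites.

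Sex-linked genes also separated the replicate numbers. Xist, the RNA that coats an inactive X chromosome, was at 14495 and 13944 in replicate 1 and 4.89 and 1.06 in replicate 2 in normalized counts. The Y-linked genes Ddx3y, Eif2s3y, Kdm5d and Uty were present in all libraries and higher in replicate 2, as in Ddx3y with 228 and 231 in replicate 1 and 2227 and 2267 in replicate 2. These genes were chosen after their values were seen. Whether the numbers stand for MEF lines the labels do not say, and the replicate number cannot be told apart from the sex of the embryos. The part of either in the Hox values was not tested.

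Genes of limb position were read beside the Hox genes. None of the 4 limb type genes was called between the groups by limma, edgeR or DESeq2, and none had an unadjusted p under 0.05. Between the replicate numbers limma and edgeR called 2 of the 4 and DESeq2 called 1, beside 7.88% of all genes tested by limma. Pitx1, which specifies the hindlimb, had normalized counts of 627 and 578 in replicate 1 and 1304 and 1784 in replicate 2 (log2 1.34, SE 0.10, adjusted p = 2.68e-07 from limma). Tbx5, which initiates the forelimb, had 1402 and 1239 in replicate 1 and 1022 and 1115 in replicate 2 (log2 -0.30, SE 0.07, adjusted p = 0.0145 from limma). Tbx4, used in the hindlimb, had 1826 and 1863 in replicate 1 and 1894 and 2062 in replicate 2 and was not called (log2 0.10, SE 0.05). In replicate 2 the hindlimb gene Pitx1 was thus higher and the forelimb gene Tbx5 lower. Isl1, another hindlimb gene, had normalized counts of 16.6 and 28.5 in replicate 1 and 52.8 and 28.7 in replicate 2 and was not called (log2 0.81, SE 0.37).

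Of 10 tested genes of the proximodistal axis, limma called 2 between the groups (11.4% of all genes tested) and DESeq2 none, Msx2 higher (0.35, SE 0.08) and Msx1 lower (-0.27, SE 0.06), both homeobox genes of the distal limb. In replicate 2 against replicate 1, limma called 4 (7.88% of all genes tested) and DESeq2 called 2. Shox2 (0.88), a gene of the upper limb, and Emx2 (0.52) were higher in replicate 2, and the distal genes Sall1 (-0.72) and Msx2 (-0.44) were lower. Distal genes did not all fall, since Msx1 went the other way and was not called there (0.14, SE 0.06). Of 10 tested genes of the anteroposterior axis, limma, edgeR and DESeq2 each called 1 between the groups. Between the replicate numbers limma called 2 and DESeq2 1. Hand2, which acts upstream of Shh in the posterior limb bud, had normalized counts of 2892 and 2313 in KO-labelled replicates 1 and 2 and 2163 and 1848 in the controls, with both KO-labelled libraries above both controls (log2 0.37, SE 0.05, adjusted p = 0.000205 from limma). Between the replicate numbers Alx4, an anterior gene, was higher in replicate 2 (0.77) and Hand2 lower (-0.27). Shh, the signal of the posterior limb margin, had no reads in any library.

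Of the 2 tested genes of the dorsoventral axis, Lmx1b and En1, none was called in either comparison by any of these tools, and none had an unadjusted p under 0.05. Of 6 genes of limb mesenchyme, Prrx2 was lower in the KO-labelled libraries (-0.17, SE 0.04) and Twist2 lower in replicate 2 (-0.24, SE 0.06) by limma. DESeq2 called none of the 6 in either comparison.

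PBX, MEIS and PKNOX proteins are the homeodomain cofactors with which HOX proteins bind DNA. None of the 9 was called between the groups by limma or DESeq2, although 1 had an unadjusted p under 0.05 and edgeR called 1. Between the replicate numbers Meis1 had normalized counts of 208 and 199 in replicate 1 and 335 and 401 in replicate 2 (log2 0.85, SE 0.12, adjusted p = 0.000279 from limma). Meis2 had 759 and 829.9 in replicate 1 and 1194 and 1458 in replicate 2 (log2 0.73, SE 0.07, adjusted p = 4.14e-06 from limma). Both mark the proximal limb and both were higher in replicate 2. Limma, edgeR and DESeq2 each called 2 of the 9 cofactors there, beside 7.88% of all genes tested by limma. The other cofactors were not called by limma.

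**Figure D5:**
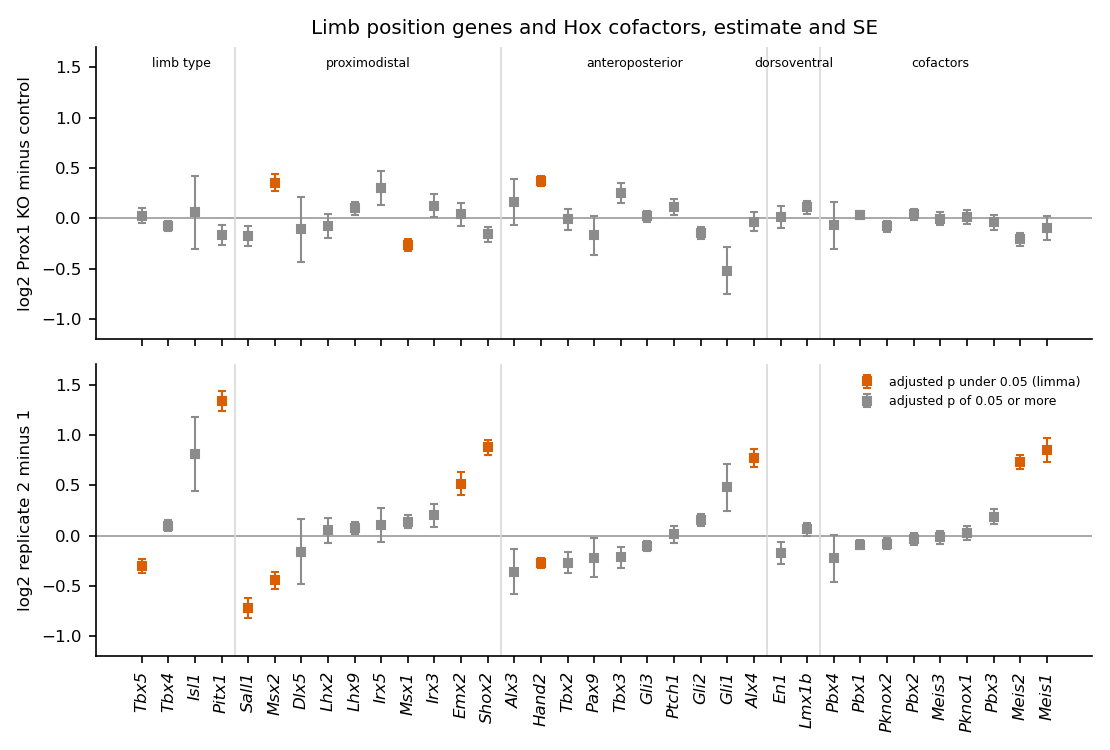
Log2 difference with its SE from limma for the tested genes of limb type, of the limb axes and of the Hox cofactors, between the groups (top) and between the replicate numbers (bottom, n = 2 libraries on each side). Orange squares mark an adjusted p under 0.05 and grey squares the others. Hand2 and Msx2 lie above 0 in the top panel, and Pitx1 lies at 1.34 in the bottom panel.

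Polycomb proteins keep Hox genes silent and trithorax proteins keep them active. Of 30 polycomb genes, limma called 5 between the groups, where it called 11.4% of all genes tested, and DESeq2 called none. Of these, 2 were called higher (Aebp2 at 0.20, SE 0.04, and Pcgf3 at 0.14, named after its values were seen) and 3 lower in the KO-labelled libraries. The lower ones were Ezh2 (-0.46, SE 0.11, adjusted p = 0.0158 from limma), the methyltransferase of polycomb complexes, Cbx6 (-0.15) and Rbbp7 (-0.14). Ezh2 had normalized counts of 241 and 223 in KO-labelled replicates 1 and 2 and 319 and 320.4 in the controls, without overlap. The median of the list was -0.01, against -0.00 of all genes tested.

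Of 12 trithorax genes, limma called 1 between the groups, beside 11.4% of all genes tested, and 5 had an unadjusted p under 0.05. The called gene was Kdm6a, an X-linked demethylase gene that escapes X inactivation. It was lower in the KO-labelled libraries (-0.23, SE 0.07) and was not called by DESeq2. Kdm6a was also lower in replicate 2 (-0.61, SE 0.07). Of 5 tested axial regulators of Hox genes, limma called none between the groups (1 with an unadjusted p under 0.05, none by edgeR or DESeq2). The trunk genes Cdx1, Cdx2 and Cdx4 had at most 1.04 normalized counts. Egr2 (-0.50) was lower in replicate 2 by limma, where DESeq2 called none of the 5.

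Other genes in and beside the clusters were read to see whether differences followed the clusters. Among 19 named non-coding genes of the clusters and Evx genes beside them, 7 were tested and none was called in either comparison by limma, edgeR or DESeq2 (none with an unadjusted p under 0.05 between the groups, 2 between the replicate numbers). Hottip, a non-coding RNA beside Hoxa13, had normalized counts of 27.02 and 42.03 in KO-labelled replicates 1 and 2 and 33.05 and 24.5 in the controls, and Hotair, transcribed from the Hoxc cluster between Hoxc11 and Hoxc12, had at most 3.19. Of all 46 annotated genes inside the clusters that are not coding Hox genes, 10 were tested, none was called between the groups by limma, edgeR or DESeq2 (1 with an unadjusted p under 0.05), and Gm53 was higher in replicate 2 by limma (0.53, SE 0.10) and not by DESeq2.

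The 5 nearest protein-coding genes on each side of each cluster gave 34 tested genes of 40. Between the groups Snx10 was higher (0.21, SE 0.06) and Hnrnpa1 (-0.17), Copz1 (-0.14) and Ttc30b (-0.33) were lower. These are 4 of 34 genes, beside 11.4% of all genes tested. Of the same genes none was called between the replicate numbers by limma, edgeR or DESeq2 (6 had an unadjusted p under 0.05). Limma called 7.88% of all genes tested there, and 13 of the 34 tested Hox genes, 7 of them in the Hoxc cluster. The genes beside the clusters flank all the clusters, not the Hoxc cluster alone. Between the groups edgeR called 4 of the genes beside the clusters and DESeq2 none (8 had an unadjusted p under 0.05).

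Markers of cell types moved with both comparisons. Hepatocyte markers, which the reprogramming factors induce, were called lower in the KO-labelled libraries for 6 of 7 tested by limma, and DESeq2 called 3. Between the groups limma called 11.4% of all genes tested. Hepatocyte markers summed to 18862 to 20645 normalized counts in the KO-labelled libraries and 24905 to 27750.3 in the controls. Fibroblast markers were called lower for 4 of 9 (Col3a1, Pdgfra, Dcn and Lum) by limma, and DESeq2 called 2. The fibroblast list summed to 914276 to 1081001 normalized counts in the KO-labelled libraries and 975634 to 1155984 in the controls. Endothelial markers were called higher for 2 of 4 tested (Kdr and Vwf) by limma, and DESeq2 called 1. The endothelial list summed to 973 to 1097 normalized counts in the KO-labelled libraries and 657 to 760.1 in the controls. Vwf had 30.1 and 23.5 in KO-labelled replicates 1 and 2 and 9.18 and 10.6 in the controls. Its control mean was 9.91, so it reached the mean of 10 only through the KO-labelled libraries. The defining markers Pecam1 and Cdh5 had at most 12.5 and 8.797. Between the replicate numbers limma called 6 of 9 fibroblast markers and 3 of 7 hepatocyte markers higher in replicate 2, and the hepatocyte marker Afp lower. It called 7.88% of all genes tested there, and DESeq2 called 4 fibroblast and 1 hepatocyte marker. Of 4 tested endothelial markers limma called 1 there, Emcn, which reached the mean of 10 only through replicate 2 (normalized counts of 4.16 and 0 in replicate 1 and 16.6 and 23.4 in replicate 2), and DESeq2 called none.

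Of chondrocyte, muscle, keratinocyte and macrophage markers, 5, 1, 2 and 3 were tested. None was called in either comparison by limma, edgeR or DESeq2, with an unadjusted p under 0.05 for 1 muscle and 1 macrophage marker between the groups and for 1 chondrocyte marker between the replicate numbers. Chondrocyte markers summed to 1032 to 1162 normalized counts in the KO-labelled libraries and 1031 to 1032 in the controls. Keratinocyte markers, read because Hoxc13 acts in hair and nail, summed to 177 to 214 normalized counts in the KO-labelled libraries and 207 to 217 in the controls, and Krt14 had at most 2.08. Muscle markers summed to 111 to 115 normalized counts in the KO-labelled libraries and 72.4 to 92.7 in the controls, with Myf5 at 0 and Myod1 and Myog at most at 0.977. Nearly all of this sum was the uncalled gene Acta1, named after its values were seen. Acta1 had 109 and 112 in KO-labelled replicates 1 and 2 and 90.9 and 71.3 in the controls. Macrophage markers summed to 306 to 362 normalized counts in the KO-labelled libraries and 285 to 304 in the controls. Adgre1 had no reads. The part of any cell type in the Hox values was not tested.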

How the data were processed

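Bulk RNA-seq was read from 4 libraries of MEFs at day 14, grouped by the Cre construct in the sample titles, with 2 libraries in each group. The deposited values are a signal per gene: the authors mapped paired reads to mm10 with STAR and divided read counts by DESeq2 size factors. The counting tool, its annotation and its strand setting are not given in the sources used here. A table of the authors' own comparison (means, shrunken fold changes and p-values) was not used.

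Every value was a whole multiple of 1 read (100% of values within 0.01), which gave back 42469031 to 48524008 reads per library and size factors of 0.9394 to 1.089. Gene names and coordinates came from GENCODE vM21 (GRCm38), which matched 55137 of 55397 identifiers, and promoters from RefSeq (GRCm38.p6). RPKM used the merged exon length.

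Differences were tested with limma 3.58.1 (R 4.3.3) on log2(normalized counts + 1) with an intensity trend, for genes with a mean of at least 10, with condition and replicate number as terms, since the methods of the study use the MEF line as a covariate. Two-sided p-values were adjusted by Benjamini and Hochberg over 15809 genes and called under 0.05. Because the whole reads could be recovered, edgeR 4.0.16 (quasi-likelihood test, TMM) and DESeq2 1.42.0 were run on them as alternatives, calling 1800 and 483 genes between the groups where limma called 1798. Since 1 was added to each value, fold changes of low genes come out too small. The code was tested on simulated data. For a single gene, an exact permutation test of 2 against 2 libraries cannot give a two-sided p below 0.333. Poisson intervals cover counting error only. Tables were handled in Python 3.11.15 with pandas 2.3.3.

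The Hox genes and all lists were chosen with earlier results of these data known. Tested Hox genes were given values, and certain genes are not reported here. In each list, Tbx5, Tbx4, Pitx1 and Hand2 and otherwise up to 4 called members with the smallest adjusted p-values were named, as was Prox1; Isl1, Shh, the Cdx genes, Hottip, Hotair and others said so in the text were named after their values were seen. Alternatives were other pseudocounts, filters, quantile normalization, edgeR, DESeq2, no block, each library left out, and the longest transcript as the length.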

Additional observations from a re-analysis of the deposited data

How the results depend on the processing

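Between the libraries labelled Prox1 KO and the controls, the 2 Hox calls became 1 (Hoxc13) with a pseudocount of 10, with a filter on a mean of 50 and with quantile normalization. DESeq2 with the block called 0 of 25 Hox genes with an adjusted p (1 with an unadjusted p under 0.05). Of all genes, DESeq2 called 483, of the genes in lists (95 tested, cell type markers left out, 10 called) 1, and of the genes beside the clusters 0 (4 with an unadjusted p under 0.05). Between the replicate numbers DESeq2 called 393 of all genes and 6 Hox genes, and quantile normalization ended the calls of Hoxc4 and Hoxc5. The causes were not tested. Hoxc13 was called in 6 of 8 settings (log2 0.60 to 0.72) and Hoxc12 in 3 of the 6 that gave an adjusted p (log2 0.89 to 1.89). With the longest transcript as the length, the mean share of the Hoxa cluster moved from 41.7% to 43.8% and that of the Hoxd cluster from 38.4% to 35.3%, and in control replicate 1 Hoxd above Hoxa (44.2% and 42.9%) became Hoxa above Hoxd (45.2% and 40.7%).

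Without the replicate block, limma called 0 of all genes (1783 with an unadjusted p under 0.05), 0 Hox genes (2), 0 genes of the lists (9) and 0 beside the clusters (4). The labels do not say what the numbers share. Libraries of the same number deviated together from their group means (correlation 0.402 over 15809 genes, from 2 pairs only). With 1 library left out, the block leaves no degrees of freedom, so these fits had no block and assumed that the lone library varies like the others. They called 0 to 118 of all genes (118 without replicate 2 labelled Prox1 KO), 0 to 0 Hox genes, 0 to 0 genes of the lists and 0 to 0 beside the clusters. The 2 Hox calls kept their direction there. The replicate difference cannot be tested within 1 group.

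The signs of some uncalled Hox differences turned. With quantile normalization the values were 0.00598 for Hoxa13, 0.043 for Hoxb2, 0.048 for Hoxb3, 0.10 for Hoxb6, 0.00125 for Hoxc4, 0.036 for Hoxc8 and 0.00765 for Hoxd10 between the groups, and -0.00962 for Hoxb2 and -0.00752 for Hoxb6 between the replicate numbers. With edgeR they were -0.00709 for Hoxc9, -0.038 for Hoxc10, -0.20 for Hoxc11 and -0.00104 for Hoxd12, and with a pseudocount of 10 -0.038 for Hoxc11. With a library or pair left out, these log2 differences between the groups took both signs: Hoxa4 -0.25 to 0.62, Hoxa13 -0.18 to 0.15, Hoxb2 -0.18 to 0.11, Hoxb3 -0.34 to 0.23, Hoxb6 -0.21 to 0.20, Hoxb7 -0.10 to 0.50, Hoxb8 -0.12 to 0.20, Hoxb9 -0.18 to 0.60, Hoxc4 -0.53 to 0.34, Hoxc5 -0.27 to 0.55, Hoxc6 -0.43 to 0.45, Hoxc8 -0.61 to 0.52, Hoxc9 -1.43 to 1.54, Hoxc10 -1.76 to 2.61, Hoxc11 -1.50 to 1.69, Hoxd4 -0.62 to 0.37, Hoxd8 -0.23 to 0.058, Hoxd10 -0.25 to 0.21, Hoxd11 -0.22 to 0.25, Hoxd12 -0.23 to 0.25, Hoxd13 -0.23 to 0.14. The pairs of replicates 1 and 2 also differed in sign for Hoxa11 (0.042 and -0.25) and Hoxb5 (-0.056 and 0.37).

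With 2 libraries a group, differences of genes with few reads, such as Hoxc11, Hoxc12, Hoxd4 and Hoxa4, are limited by counting error. The RPKM of overlapping genes depends on how shared reads were counted. By its count Prox1 was not lower under the KO label, with both KO-labelled libraries above both controls, so the labels alone give the direction.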
